A study of Mus musculus with 29 samples.

Results

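The Polycomb group genes described here were Ezh1, Ezh2, Eed and Suz12 of Polycomb repressive complex 2 (PRC2) and Bmi1, Ring1, Rnf2, Cbx2, Cbx7 and Cbx8 of Polycomb repressive complex 1 (PRC1). They were chosen with earlier results of these data known, and were matched by symbol. All 10 were found among 24732 entries of the mm9 expression tables and among 25588 entries of the mm10 tables. Each of the 10 had more than 1 TPM (reads per transcript length, scaled to the same total in each library) in all 8 libraries used.

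Expression was measured by sequencing of poly(A) RNA from C57BL/6 mouse pro-B cells, the bone marrow progenitors that are committed to the B lineage and rearrange the immunoglobulin heavy chain. Pro-B cells sorted directly from Pax5(+/+) mice (3 libraries) were compared with Pax5(-/-) progenitors (2 libraries), which lack the transcription factor that commits cells to the B lineage. A further 3 libraries came from sorted, pooled pro-B cells of 3-week-old mice that carry Meox2-Cre, a Cre allele active in the whole embryo and therefore not restricted to B cells. Because these were processed against another genome build, mm10, their values are given beside the others without a test.

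The labels name the genotype of the Meox2-Cre mice as Pax5(+/+), whereas the sequencing list of the study gives Pax5(+/-). The text of the study calls its control pro-B cells from 3-week-old mice Pax5(+/+). Pax5 itself had 394, 376 and 397 TPM in the Meox2-Cre libraries. The ages of the other mice were not given in the sources used here. Wild-type pro-B cells and Pax5(-/-) progenitors were sorted with different surface gates, so that genotype and gate cannot be told apart. Nothing in the labels says that libraries of a group came from separate mice, so the p-values measure only the spread between these libraries, which may be technical. Replicate numbers only name the libraries.

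Polycomb proteins keep genes silent through chromatin. In PRC2, Ezh2 or its paralog Ezh1 methylates lysine 27 of histone H3 (H3K27), Suz12 holds the complex together, and Eed binds the finished trimethyl mark and stimulates the enzyme. In PRC1, Ring1 or Rnf2 attaches ubiquitin to histone H2A with a Pcgf partner such as Bmi1, and Cbx proteins dock canonical PRC1 on trimethylated H3K27. Ezh2 is known to be needed for normal heavy-chain rearrangement in early B cells, and Bmi1 for the self-renewal of haematopoietic stem cells and the silencing of Cdkn2a.

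The knockout itself was visible in the RNA. Pax5 had 342, 386 and 391 TPM in wild-type cells and 43.0 and 39.1 TPM in the knockout (log2 fold change -3.17, limma, adjusted p = 3.1e-06). The summed TPM of 11 pro-B markers ranged from 12775 to 15347 in Pax5(+/+) and from 4585 to 4898 in Pax5(-/-). Of the 11, 7 were called lower by the test described below, beside 21.5% of all genes tested, and none stood at 0. The summed T cell markers ranged from 57.5 to 75.5 TPM in Pax5(+/+) and from 200.1 to 205 TPM in Pax5(-/-), of which Lck made up most, while the defining Cd3e, Cd3g and Cd3d stayed below 1 TPM. Summed myeloid markers reached 41.6 to 168 TPM in Pax5(+/+), 55.1 to 73.4 TPM in Pax5(-/-) and 269 to 649 TPM in Meox2-Cre, and erythroid markers 19.4 to 57.5, 4.55 to 9.78 and 24.1 to 54.3 TPM in the same order, with Hbb-b1 at 0. Natural killer markers reached 3.94 to 14.4 and 19.6 to 24.4 TPM, plasmacytoid dendritic markers 314 to 364 and 162 to 251 TPM, and plasma cell markers 96.7 to 106 and 86.5 to 94.4 TPM in Pax5(+/+) and Pax5(-/-). Xbp1 made up most of the plasma cell sum and did not pass (log2 fold change 0.16, limma, adjusted p = 0.342). The plasma cell marker Sdc1 was called lower in Pax5(-/-) (log2 fold change -1.88, limma, adjusted p = 0.00021). In the T cell, natural killer and plasmacytoid lists, genes were called in opposite directions. Cd4 averaged 0.534 TPM in Pax5(+/+) and 4.93 TPM in Pax5(-/-), but Trac 1.10 and 0 TPM. Cd4 and Siglech averaged over 1 TPM only in Pax5(-/-), and Trac only in Pax5(+/+). Nkg7 averaged 4.06 TPM in Pax5(+/+) and 20.3 TPM in Pax5(-/-), but Klrb1c 5.61 and 1.16 TPM, and Irf8 averaged 237 and 59.4 TPM, but Siglech 0.5996 and 5.43 TPM. In bulk RNA, fewer cells of a type and less RNA per cell cannot be told apart, and the part of these markers in the results was not tested.

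In wild-type pro-B cells the Polycomb genes spanned a wide range of levels. Ezh2 was the most abundant at 286 ± 33.2 TPM (SD, n = 3), which placed it at the 94.4th percentile of the genes above 1 TPM. Suz12 (110.2 TPM) and Cbx2 (103 TPM) followed with overlapping libraries, and then came Eed (79.0 TPM) and Ring1 (50.1 TPM), each clear of its neighbours. Rnf2 (40.7 TPM) and Bmi1 (39.0 TPM) overlapped, as did Cbx8 (22.9 TPM) with Ezh1 (21.9 TPM) and Ezh1 with Cbx7 (18.2 TPM), the lowest of the 10. Since TPM is a value per transcript length, these levels can be set against each other within a library.

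**Figure D1:**
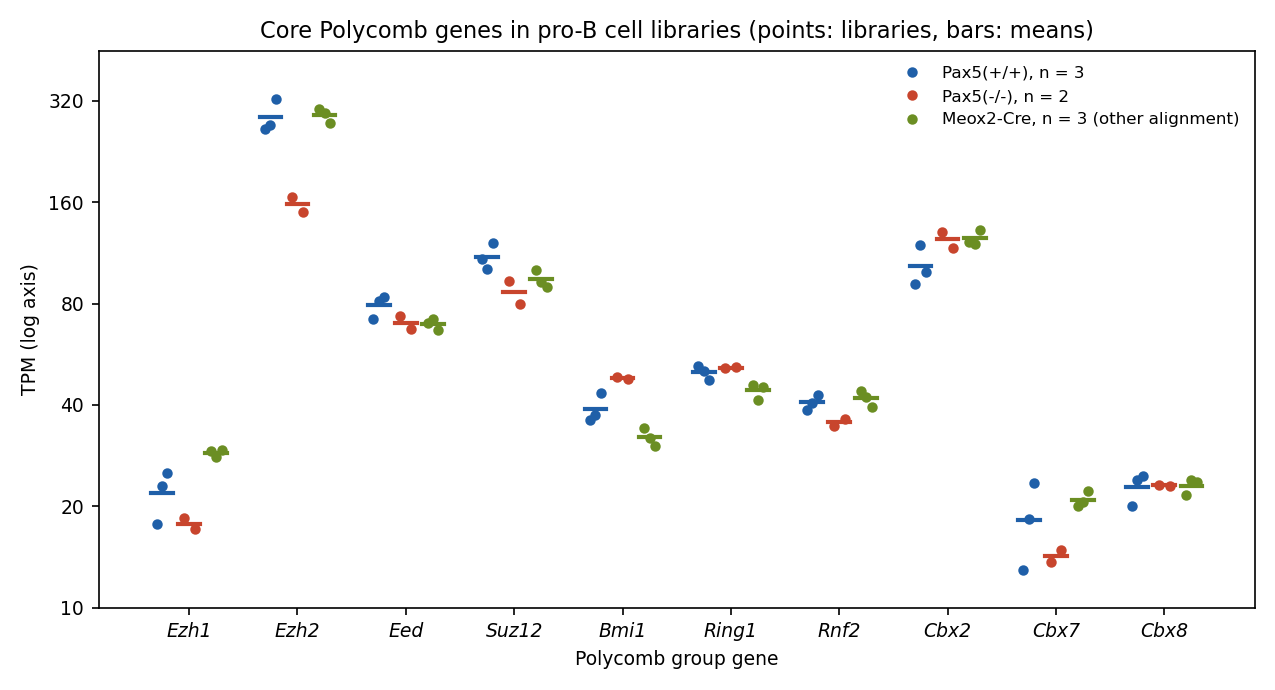
TPM (log axis) of the 10 Polycomb genes in each library, with points for libraries and horizontal bars for group means of Pax5(+/+) (n = 3), Pax5(-/-) (n = 2) and Meox2-Cre (n = 3, aligned to another build). Ezh2 lies highest in all 3 groups, and its 2 Pax5(-/-) points, at 166 and 149 TPM, lie below all others for that gene.

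The question of the comparison was how expression in pro-B cells depends on Pax5. Among the Polycomb genes, Ezh2 was lower without Pax5, and the other 9 did not pass the test in either direction. The test was limma on log2(TPM + 0.5) over the 12066 genes that averaged over 1 TPM in either genotype, with Benjamini-Hochberg adjustment and a threshold of adjusted p below 0.05. All 10 members were tested, of which 1 was called lower, beside 21.5% of all genes tested, and 0 were called higher, beside 15.6%. In either direction the share of all genes called was 37.1%. At an unadjusted p below 0.05, limma had 1 member higher (Bmi1) and 2 lower (Ezh2 and Suz12), beside 47.3% of all genes tested in either direction.

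The genotypes did not overlap for 4 of the 10 members, beside 63.4% of all genes tested. The Pax5(-/-) libraries lay below all Pax5(+/+) libraries for Ezh2, Suz12 and Rnf2 and above them for Bmi1. The median log2 fold change of the members was -0.18, and that of all genes tested was -0.12. When the libraries were rescaled by median ratios, the median of all genes became -0.01 and that of the members -0.07, and after quantile normalization -0.02 and -0.08, so that downward values below are about 0.1 smaller on those scales. No member passed the stricter rule of the study, which asks in addition for a difference over 3-fold and for 5 TPM on average in one genotype and which took in 6.17% of all genes tested.

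Ezh2, the main H3K27 methyltransferase of dividing cells, was measured at 263, 270.25 and 324 TPM in Pax5(+/+), against 166 and 149 TPM in Pax5(-/-). Both knockout libraries were below all 3 wild-type libraries, and the wild-type mean was 1.81 times the knockout mean. The log2 fold change was -0.85 with a standard error of 0.12 and a 95% confidence interval of -1.13 to -0.57 (limma, adjusted p = 0.0017). It remained past the threshold in 14 of 14 other settings, where the log2 fold change ran from -0.93 to -0.75 and the adjusted p from 0.00098 to 0.044. The gene lies on the minus strand of mm9 chr6:47480273-47545340 and overlaps the lincRNA Gm17629 on the opposite strand. The counting is not stated to use strand, so that reads of this pair cannot be told apart.

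Ezh1, the paralog known from resting and differentiated cells, was an order of magnitude scarcer. Its libraries read 17.7, 22.9 and 25.1 TPM in Pax5(+/+) and 18.5 and 17.1 TPM in Pax5(-/-). The genotypes overlapped, and the log2 fold change of -0.28 (95% confidence interval -0.70 to 0.14, limma, adjusted p = 0.253) did not pass. Without Pax5(+/+) library 1, the lowest of the 3, the value was -0.42 with an adjusted p of 0.049, the lowest of a range up to 0.622 over the 14 settings. The gene occupies the minus strand of mm9 chr11:101052429-101087777.

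Within each library the Ezh2 to Ezh1 ratio does not depend on how the library is scaled. It was 14.9, 11.8 and 12.9 in Pax5(+/+) and 8.98 and 8.75 in Pax5(-/-). The knockout ratios were the lower ones without overlap, and the mean log2 ratio differed by -0.57 (two-sided exact permutation test, p = 0.1). With 10 arrangements of 3 against 2 libraries, 0.1 is the smallest p the test can give, so no ratio could reach 0.05. As shares of the summed TPM of both genes, Ezh2 made up 92.9 ± 0.763% (SD, n = 3) in Pax5(+/+) and 89.9 ± 0.167% (SD, n = 2) in Pax5(-/-).

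The promoter sequences of the 2 methyltransferase genes are shown because one gene was called and the other was not, with Suz12 and Phf19, a PRC2 accessory gene described below, because they hold the same motif as Ezh2. The windows come from RefSeq promoters on GRCm38.p6, a build other than that of the mm9 tables, and 9 of the 10 members were matched there, without Cbx2. The search was for the binding motif of the cell cycle factors of the E2F family in 4 forms, TTTGGCGC, TTTGCCGC, TTTCGCGC and TTTCCCGC, on both strands, in the 300 bases from 250 before to 50 after each start, with overlapping matches counted. Capitals mark the motif, and the first base of the transcript is position 1. The Ezh2 window is chr6:47595001-47595150 and the Ezh1 window chr11:101226434-101226583, both on the minus strand and from position -120 to 30. The Suz12 window is chr11:79992856-79993005 on the plus strand and the Phf19 window chr2:34914077-34914226 on the minus strand, both from position -250 to -101.
Ezh2: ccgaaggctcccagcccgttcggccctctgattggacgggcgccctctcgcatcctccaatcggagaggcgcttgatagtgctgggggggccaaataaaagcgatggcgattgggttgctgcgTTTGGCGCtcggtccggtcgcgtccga
Ezh1: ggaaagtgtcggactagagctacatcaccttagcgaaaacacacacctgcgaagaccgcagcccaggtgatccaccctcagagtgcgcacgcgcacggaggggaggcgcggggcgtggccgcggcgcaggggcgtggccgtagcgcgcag
Suz12: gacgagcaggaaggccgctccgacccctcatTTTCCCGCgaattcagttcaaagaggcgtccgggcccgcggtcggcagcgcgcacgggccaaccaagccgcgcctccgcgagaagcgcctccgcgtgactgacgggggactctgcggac
Phf19: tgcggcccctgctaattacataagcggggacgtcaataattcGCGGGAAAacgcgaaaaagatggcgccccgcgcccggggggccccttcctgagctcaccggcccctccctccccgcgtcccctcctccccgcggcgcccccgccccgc

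Ezh2 held TTTGGCGC starting at position 4, Suz12 held TTTCCCGC at -219, and Phf19 held the reverse complement GCGGGAAA at -208. The 8 letters were absent in these forms from the windows of the other 7 matched members, Ezh1 included. The wider lists described below were searched too. Phf19 was the only match among 7 PRC2 accessory genes with a promoter. There was none among 7 canonical PRC1, 9 variant PRC1, 4 H2A deubiquitylation and 1 H3K27 demethylase genes with a promoter. Of all 32851 promoters in the table, 744 (2.26%) held at least 1 match. The Ezh2 promoter had a GC content of 64.3% and 31 CpG sites in its 300 bases, against 59.3% and 23 in Ezh1 and a median of 52.7% and 7 over all promoters. All 9 matched members lay above that median, from 17 CpG sites in Eed to 41 in Suz12. The motif itself contains CG, and promoters of like base content were not compared. A match is a stretch of letters and not evidence of binding.

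The structural subunits of PRC2 did not pass the test. Suz12, the scaffold, had 109, 101 and 121 TPM in Pax5(+/+) and 93.4 and 80.0 TPM in Pax5(-/-). All Pax5(-/-) values were below all Pax5(+/+) values, and the log2 fold change was -0.35 (standard error 0.12, 95% confidence interval -0.63 to -0.06), but the adjusted p of 0.059 by limma missed the threshold, as it did in all 14 other settings, at 0.055 to 0.368. Suz12 lies on the plus strand of mm9 chr11:79806608-79847625 with the lincRNA Gm16706 on the opposite strand, so the same limit on strand holds. Eed, the subunit that reads the trimethyl mark, had 71.9, 81.6 and 83.6 TPM in Pax5(+/+) and 73.4 and 67.1 TPM in Pax5(-/-), on the minus strand of mm9 chr7:97103166-97129493. Its groups overlapped, and the interval of the log2 fold change ran from -0.43 to 0.10 (limma, adjusted p = 0.286).

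In PRC1, neither gene of the catalytic pair passed the test. Ring1, on mm9 chr17:34157737-34161625 (minus strand), read 52.3, 50.5 and 47.4 TPM in Pax5(+/+) and 51.4 and 51.9 TPM in Pax5(-/-). Its log2 fold change of 0.05 had a 95% confidence interval of -0.21 to 0.30 (limma, adjusted p = 0.761). Rnf2 (also called Ring1B), on mm9 chr1:153316536-153347953 (minus strand), read 38.7, 40.5 and 42.9 TPM in Pax5(+/+) and 34.6 and 36.4 TPM in Pax5(-/-). The Rnf2 libraries did not overlap, yet the log2 fold change of -0.19 (95% confidence interval -0.46 to 0.08) did not pass (limma, adjusted p = 0.222). The Rnf2 to Ring1 ratio was 0.741, 0.803 and 0.905 in Pax5(+/+) and 0.673 and 0.702 in Pax5(-/-), a difference of -0.24 in the mean log2 ratio (two-sided exact permutation test, p = 0.2).

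Bmi1, the Pcgf partner best known from stem cells, was the 1 member whose Pax5(-/-) libraries lay above all Pax5(+/+) libraries. Its values were 36.2, 37.5 and 43.3 TPM in Pax5(+/+) and 48.5 and 47.8 TPM in Pax5(-/-). The log2 fold change of 0.31 (standard error 0.12, 95% confidence interval 0.02 to 0.60) had an adjusted p of 0.091 by limma. This call depended on the setting, with adjusted p values from 0.016 to 0.313 over the alternatives. Bmi1 passed after median-ratio rescaling (log2 fold change 0.41, adjusted p = 0.016), after quantile normalization (0.41, adjusted p = 0.016) and without Pax5(+/+) library 3 (0.38, adjusted p = 0.032). It lies on the plus strand of mm9 chr2:18598645-18608256, 786 bases from the end of Commd3.

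The 3 Cbx members, the readers of trimethylated H3K27, showed no called change. Cbx2 was the most abundant of them at 91.4, 119 and 99.0 TPM in Pax5(+/+) and 131 and 117 TPM in Pax5(-/-) (log2 fold change 0.27, 95% confidence interval -0.04 to 0.58, limma, adjusted p = 0.151). Cbx8, its neighbour 5034 bases away on chromosome 11, had 20.1, 23.9 and 24.6 TPM in Pax5(+/+) and 23.2 and 23.0 TPM in Pax5(-/-) (log2 fold change 0.02, 95% confidence interval -0.32 to 0.36, limma, adjusted p = 0.927). Both Pax5(-/-) values of Cbx8 lay inside the wild-type range. Cbx7, which binds trimethylated H3K27 as Cbx2 and Cbx8 do, had 12.9, 18.4 and 23.4 TPM in Pax5(+/+) and 13.7 and 14.8 TPM in Pax5(-/-) (log2 fold change -0.30, 95% confidence interval -0.87 to 0.26, limma, adjusted p = 0.357). Without Pax5(+/+) library 1 the Cbx7 value was -0.52 with an adjusted p of 0.047, the lowest of a range up to 0.728. In mm9, Cbx2 occupies chr11:118884276-118892584 (plus strand), Cbx8 chr11:118897619-118902283 (minus strand) and Cbx7 chr15:79746237-79801549 (minus strand).

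Pax5(+/+) library 1 was the lowest of the 3 wild-type libraries for 8 of the 10 members and for 54.0% of all genes tested, and library 3 was the highest for 8 members and for 53.5%. The members called lower numbered 3 without library 1 (Ezh2, Ezh1 and Cbx7) and 1 without each of the other libraries. The members called higher numbered 1 (Bmi1) without library 3 and 0 without each of the others.

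Looked at as shares of the summed TPM of Cbx2, Cbx6, Cbx7 and Cbx8, Cbx2 took 50.3 ± 3.57% in Pax5(+/+) (SD, n = 3) and 59.6 ± 0.870% in Pax5(-/-) (SD, n = 2). The individual shares of Cbx2 were 51.9, 52.8 and 46.2% against 60.2 and 58.96%, which do not overlap. Cbx6 took 29.7 ± 1.501% and 22.4 ± 0.580%, Cbx7 8.80 ± 1.88% and 6.89 ± 0.807%, and Cbx8 11.2 ± 0.486% and 11.1 ± 0.643% in the same order. The Cbx2 to Cbx8 ratio was 4.55, 4.98 and 4.03 against 5.64 and 5.09 (two-sided exact permutation test, p = 0.2). The Cbx7 to Cbx8 ratio was 0.643, 0.769 and 0.951 against 0.592 and 0.644, with overlap (two-sided exact permutation test, p = 0.3). With Ezh2 to Ezh1, Rnf2 to Ring1 and Bmi1 to Pcgf2, 5 ratios were tested, none of which could pass.

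The 6 Pcgf genes share the Ring1 and Rnf2 partners, and each defines a form of PRC1. Bmi1 (Pcgf4) held 27.9 ± 1.80% of their summed TPM in Pax5(+/+) and 27.1 ± 0.295% in Pax5(-/-). Its closest paralog Pcgf2 held 5.64 ± 1.07% and 10.3 ± 1.99%, respectively. The Bmi1 to Pcgf2 ratio was 4.83, 4.02 and 6.44 in Pax5(+/+) and 2.32 and 3.01 in Pax5(-/-), a difference of -0.92 in the mean log2 ratio without overlap (two-sided exact permutation test, p = 0.1, the smallest possible).

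**Figure D2:**
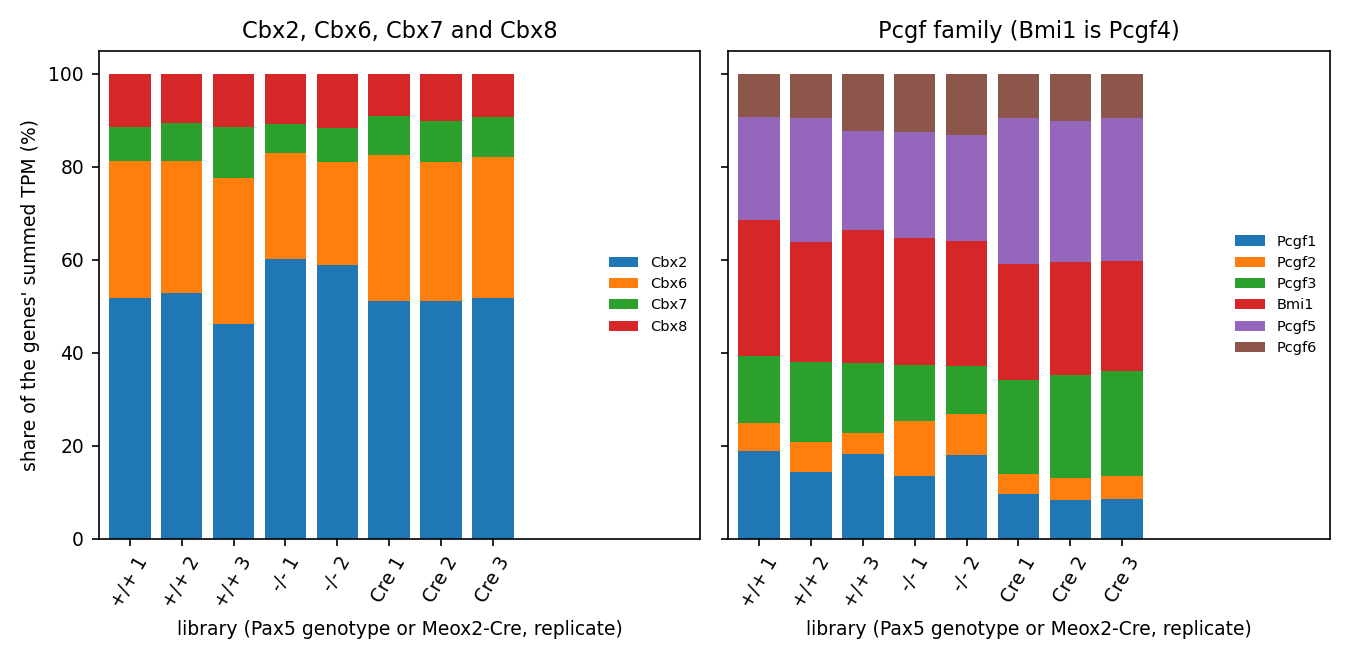
Share of the summed TPM (%) that each gene takes of Cbx2, Cbx6, Cbx7 and Cbx8 (left) and of the 6 Pcgf genes (right), with 1 stacked bar per library. Cbx2 takes 60.2 and 58.96% in the Pax5(-/-) libraries against 46.2 to 52.8% in Pax5(+/+), and Pcgf2 takes 11.8 and 8.94% against 4.43 to 6.44%.

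The wider Polycomb machinery was read from lists of accessory and variant subunits and of opposing enzymes, which held 36 genes, 34 of them tested. Of these 34, 3 were called higher and 7 lower in Pax5(-/-), beside 15.6% and 21.5% of all genes tested, and the median log2 fold change was -0.22. None passed the rule of the study (6.17% of all genes tested). Without Pax5(+/+) library 1 there were 11 lower, without Pax5(-/-) library 2 there were 4 lower, and without Pax5(-/-) library 1 there was 1 higher.

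Of the 8 PRC2 accessory genes, 1 was higher and 2 were lower, beside 15.6% and 21.5% of all genes tested. Phf19, a Polycomb-like protein that helps PRC2 onto chromatin, fell from 56.6, 49.3 and 57.8 TPM to 27.1 and 23.1 TPM (log2 fold change -1.11, standard error 0.13, limma, adjusted p = 0.00080). It overlaps the lincRNA Gm13448 on the opposite strand, so the same limit on strand holds as for Ezh2. Epop, listed under its older name E130012A19Rik and known as a PRC2 partner that can limit its activity, rose from 16.5, 15.4 and 15.4 TPM to 36.5 and 32.7 TPM (1.11, standard error 0.13, limma, adjusted p = 0.00081). Rbbp4, a histone-binding subunit that PRC2 shares with other complexes and whose entry carries a mark for overlap, read 218, 205 and 232 TPM against 175 and 165 TPM (-0.36, limma, adjusted p = 0.025). Entries of Cbx6, L3mbtl2, Ccna2, Lck and Hbb-b1, named elsewhere in this text, carry the same mark. Phf19 and Epop passed in 14 of 14 other settings. Rbbp4 passed in 8, with adjusted p values from 0.024 to 0.184, and missed under both rescalings, with no filter on low values, with eBayes without trend and without either Pax5(-/-) library. The other 5 had log2 fold changes from -0.23 to 0.12.

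Of the 7 canonical PRC1 genes tested besides the members, 1 was higher and 3 were lower, beside 15.6% and 21.5% of all genes tested. Phc1, a polyhomeotic protein whose SAM domain links PRC1 complexes, fell from 55.0, 67.4 and 58.0 TPM to 27.9 and 22.8 TPM (log2 fold change -1.23, limma, adjusted p = 0.00070). Its paralog Phc3 read 7.81, 10.7 and 12.9 TPM against 6.29 and 5.01 TPM (-0.82, limma, adjusted p = 0.035), and this call held in 9 of 14 settings, with adjusted p values from 0.0095 to 0.278, and was lost with no filter and without any 1 of the libraries other than Pax5(+/+) library 1. Scmh1, a SAM domain partner of the Phc proteins, fell from 56.97, 81.1 and 69.8 TPM to 30.5 and 27.4 TPM (-1.23, limma, adjusted p = 0.0012). Pcgf2 rose from 7.50, 9.33 and 6.73 TPM to 20.9 and 15.9 TPM (1.18, limma, adjusted p = 0.0043), in 12 of 14 settings, with adjusted p values from 0.0026 to 0.086, and missed with no filter and without Pax5(-/-) library 1. Among the Phc genes, Phc2 took 59.6 ± 3.07% of the summed TPM in Pax5(+/+) and 75.4 ± 3.34% in Pax5(-/-), while its own log2 fold change of -0.13 did not pass (limma, adjusted p = 0.398).

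Variant PRC1, in which Rybp or Yaf2 stands in place of a Cbx protein, had 13 genes tested. Of these, 1 was higher and 2 were lower, beside 15.6% and 21.5% of all genes tested. Yaf2 fell from 30.4, 35.3 and 30.7 TPM to 16.2 and 14.6 TPM (log2 fold change -1.04, limma, adjusted p = 0.0013). L3mbtl2, a subunit of the Pcgf6 complex, fell from 59.3, 57.7 and 61.7 TPM to 40.3 and 36.0 TPM (-0.64, limma, adjusted p = 0.0041), in 13 of 14 settings and not without Pax5(-/-) library 2 (adjusted p = 0.068, range 0.0033 to 0.068). Pcgf6 read 11.3, 13.7 and 18.5 TPM against 22.1 and 23.4 TPM (0.66, limma, adjusted p = 0.045), and passed in 8 of 14 settings, with adjusted p values from 0.0074 to 0.277, but not with no filter, with eBayes without trend or without any 1 of the libraries other than Pax5(+/+) library 3. The other 10 ranged from -0.65 to 0.31.

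Of the enzymes that act against Polycomb marks, 0 of 4 H2A deubiquitylation genes tested and 0 of 2 H3K27 demethylases, Kdm6a and Kdm6b, passed by limma. The share of all genes tested that passed in either direction was 37.1%. At an unadjusted p below 0.05 there were 2 and 0, beside 47.3% of all genes tested. The demethylases had log2 fold changes of -0.20 (95% confidence interval -0.50 to 0.11) for Kdm6a and 0.19 (-0.27 to 0.65) for Kdm6b. Asxl3 was listed at 0 in every library, and Scml2 stayed below 1 TPM.

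**Figure D3:**
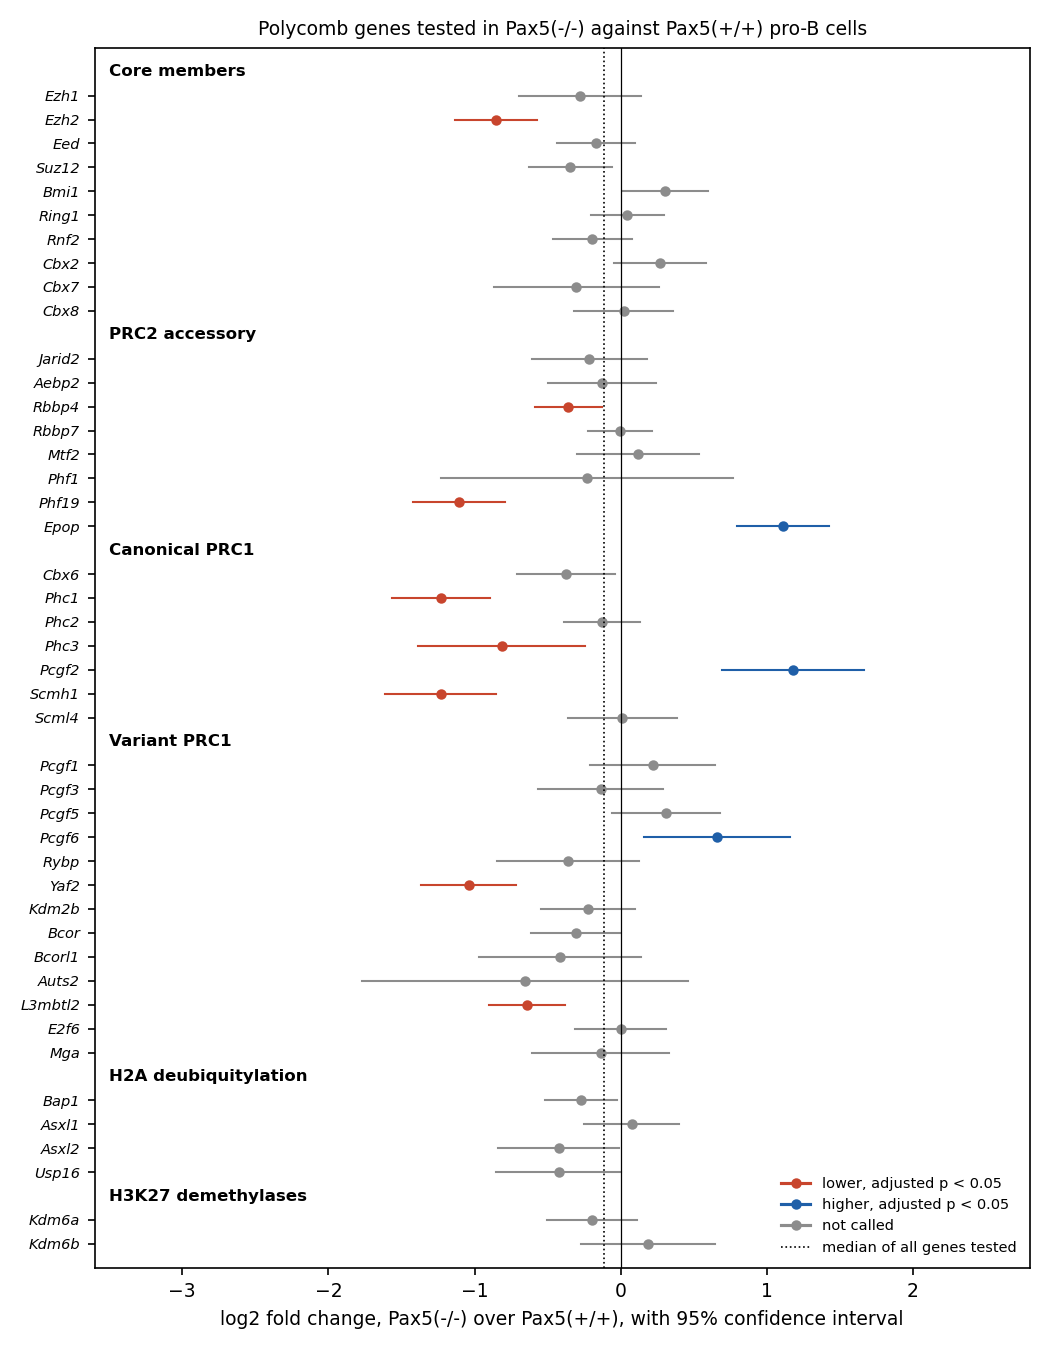
Log2 fold change of Pax5(-/-) over Pax5(+/+) with its 95% confidence interval (limma) for the 10 core members and the 34 other Polycomb genes tested, grouped by complex, with the median of all genes tested at -0.12 as a dotted line. Of the core members only Ezh2 is coloured as lower, and among the others Epop, Pcgf2 and Pcgf6 are coloured as higher and 7 genes as lower.

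Hox genes, the classical Polycomb targets, and the Cdkn2a and Cdkn2b cell cycle inhibitors were read as a further list. Of 41 such genes (39 Hox), 32 were below 1 TPM in every Pax5(+/+) and Pax5(-/-) library, 19 of them listed at 0 throughout, and 9 were tested. By limma, 4 were higher in Pax5(-/-) and 1 was lower, beside 15.6% and 21.5% of all genes tested. Of these, Hoxb6 averaged 0.311 TPM in Pax5(+/+) and 2.00 TPM in Pax5(-/-), and Cdkn2a 1.89 and 0.0652 TPM. Both passed the filter of 1 TPM only through the genotype where they were higher, so their calls are not independent of the filter. Hoxa7 rose from 13.3, 17.7 and 11.5 TPM to 31.2 and 31.6 TPM (log2 fold change 1.14, adjusted p = 0.0037). Hoxa5 rose from 2.02, 3.90 and 3.26 TPM to 5.92 and 6.90 TPM (0.99, adjusted p = 0.029), and its neighbour Hoxa6 from 1.27, 2.31 and 1.58 TPM to 4.03 and 3.75 TPM (1.01, adjusted p = 0.024). These 3 genes lie together in the HoxA cluster, and reads of overlapping transcripts there cannot be separated by strand. Hoxa3, Hoxa4 and Hoxa9 of the same cluster were tested and did not pass. Their log2 fold changes were 0.77, -0.15 and 0.10 (limma, adjusted p = 0.056, 0.719 and 0.748). Hoxb6, of the HoxB cluster, read 0.0958, 0.282 and 0.555 TPM against 2.02 and 1.98 TPM (1.66, adjusted p = 0.0071). At levels this low the value depended on the pseudocount, with 2.52 at 0.1 TPM and 1.21 at 1 TPM for Hoxb6.

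All 4 Hox calls were lost without either Pax5(-/-) library and with no filter on low values, where adjusted p reached 0.056 for Hoxb6, 0.074 for Hoxa7, 0.146 for Hoxa6 and 0.221 for Hoxa5, from lowest values of 0.0034, 0.0024, 0.010 and 0.0090. Cdkn2a, which encodes p16 and p19Arf and which Bmi1 is known to repress, was low throughout at 1.89, 1.20 and 2.59 TPM in Pax5(+/+) and at 0.130 and 0 TPM in Pax5(-/-) (log2 fold change on the log2(TPM + 0.5) scale -2.05, limma, adjusted p = 0.0034). The Cdkn2a value was -3.65 with a pseudocount of 0.1 TPM and -1.42 with 1 TPM.

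Because Ezh2 is known to follow the cell cycle, genes of DNA replication and mitosis were set beside it. Of 18 such genes, 11 were lower and 0 higher in Pax5(-/-), beside 21.5% and 15.6% of all genes tested, and the median log2 fold change was -0.71. At an unadjusted p below 0.05, limma also had 0 higher and 11 lower, beside 47.3% of all genes in either direction. E2f2, an E2F factor, had 377, 396 and 377 TPM in Pax5(+/+) and 61.7 and 46.1 TPM in Pax5(-/-) (-2.83, limma, adjusted p = 1.2e-05). Rrm2, which supplies deoxyribonucleotides, had 659.9, 569 and 626 TPM against 222 and 172 TPM (-1.66, limma, adjusted p = 0.00011). The cell cycle marker Mki67 had 171, 211 and 307 TPM against 97.8 and 70.3 TPM (-1.42, limma, adjusted p = 0.0041), although this call was lost without Pax5(-/-) library 2 (adjusted p = 0.083) and with no filter (adjusted p = 0.097), from a lowest value of 0.0023.

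Ccna2 (cyclin A2) at -0.997, Top2a (topoisomerase II) at -0.93 and Tyms (thymidylate synthase) at -0.87 lay next to Ezh2 at -0.85 in log2 fold change. Top2a lost its call in the same settings as Mki67, with adjusted p values of 0.081 and 0.082, from a lowest value of 0.0025 (limma). The 7 genes that did not pass were E2f1 and the 6 Mcm helicase genes, named here after their values were seen, at -0.09 to 0.25. Most of the list was lower together with Ezh2, and the part of cell cycle activity in the lower Ezh2 was not tested. Of the 15 proliferation genes with a promoter in the table, 6 held the E2F motif, namely Cdk1, E2f2, Mcm3, Mcm5, Mcm6 and Mcm7, beside 2.26% of all promoters. Of these 6, only Cdk1 and E2f2 were called lower. Mki67, Top2a, Rrm2 and Tyms, also called lower, held no match.

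**Figure D4:**
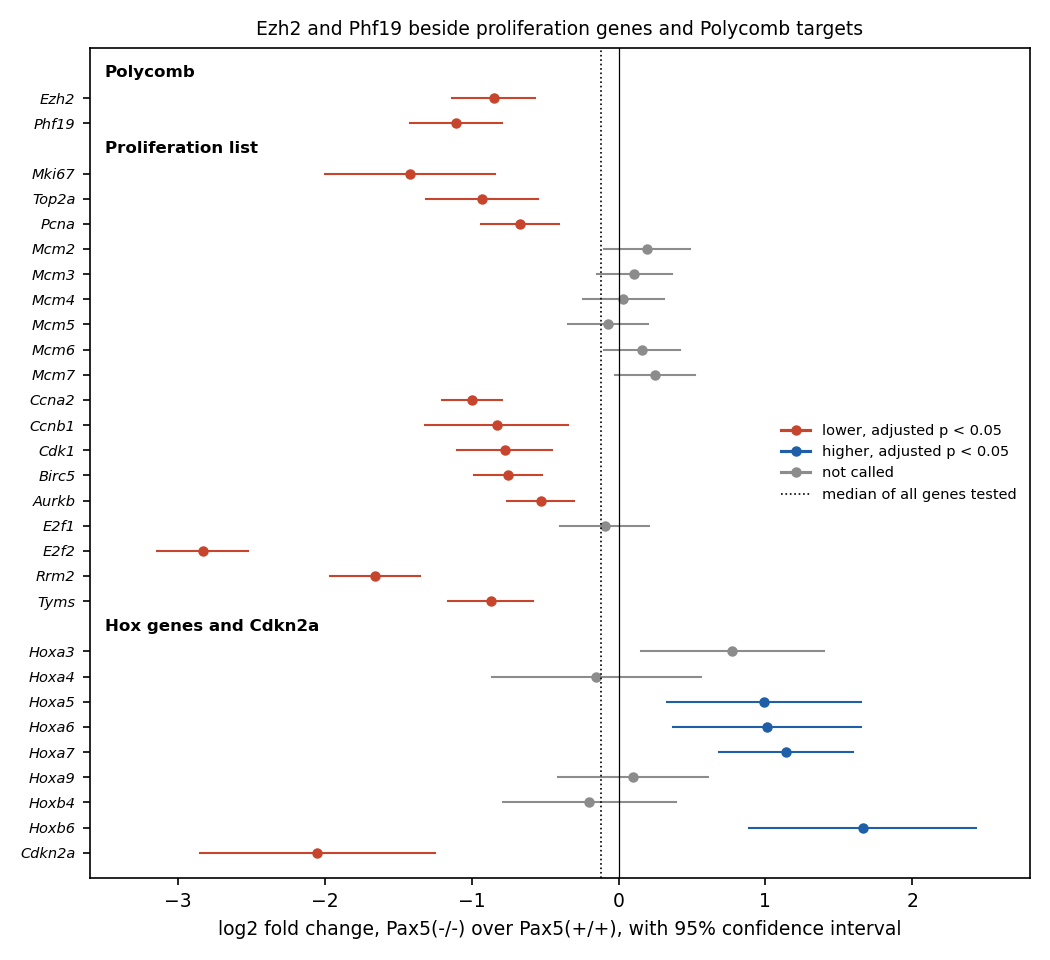
Log2 fold change of Pax5(-/-) over Pax5(+/+) with its 95% confidence interval (limma) for Ezh2 and Phf19, the 18 proliferation genes and the 9 tested genes of the Hox and Cdkn2a list, with the median of all genes tested as a dotted line. Of the proliferation genes 11 lie to the left as called and the Mcm genes lie around 0, while 4 Hox genes lie to the right.

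In the Meox2-Cre libraries the same genes stood at both ends of the order, with Ezh2 the highest at 302, 294 and 274 TPM and Cbx7 the lowest at 20.01, 20.6 and 22.3 TPM. Cbx2 came next at 122, 120.5 and 133 TPM, and then Suz12 at 101, 92.9 and 89.5 TPM, without overlap, whereas these genes overlapped in Pax5(+/+). Eed had 70.1, 72.0 and 66.6 TPM. Ring1 had 45.9, 41.4 and 45.2 TPM, which overlapped Rnf2 with 44.0, 42.2 and 39.5 TPM. Bmi1 had 34.2, 31.9 and 30.2 TPM, Ezh1 29.2, 28.1 and 29.4 TPM, and Cbx8 21.6, 24.0 and 23.6 TPM, the last overlapping Cbx7. In the Pax5(-/-) libraries the order was Ezh2, Cbx2, Suz12, Eed, Ring1, Bmi1, Rnf2, Cbx8, Ezh1 and Cbx7, with no overlap between neighbours in these 2 libraries.

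Within the Meox2-Cre libraries, ratios again need no common scale. Ezh2 to Ezh1 was 10.3, 10.5 and 9.33, and Bmi1 to Pcgf2 was 5.85, 5.06 and 4.89. The Ezh2 to Ezh1 values lay between those of Pax5(-/-) and Pax5(+/+), and the Bmi1 to Pcgf2 values lay inside the Pax5(+/+) range, which is a description only since alignment and annotation differed. Cbx2 held 51.4 ± 0.387% of the sum of Cbx2, Cbx6, Cbx7 and Cbx8 there (SD, n = 3), Bmi1 24.3 ± 0.624% and Pcgf2 4.63 ± 0.331% of the Pcgf sum. The other Pcgf genes held 8.87% (Pcgf1), 21.7% (Pcgf3), 30.8% (Pcgf5) and 9.66% (Pcgf6), beside 17.2, 15.5, 23.5 and 10.3% in Pax5(+/+).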

How the data were processed

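The authors removed reads that matched ribosomal RNA, aligned the Pax5(+/+) and Pax5(-/-) reads to mm9 with TopHat (1.4.1a) and the Meox2-Cre reads to mm10 with STAR (2.4.2a), and counted reads per gene with featureCounts (1.5.0, default settings for mm9) on a modified refGene annotation for mm9 and, for mm10, on refGene extended by immunoglobulin and T cell receptor genes, entries for which the mm9 tables also hold. The deposited values used here are TPM, calculated by the authors per library; read counts were not used here, so total depth is unknown. From the smallest steps of the TPM values, relative depth was 0.855 to 1.54 times that of Pax5(+/+) library 1 in the mm9 tables and within 1.03 times in the mm10 tables.

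Entries were matched by symbol, through synonyms where needed. limma (3.58.1, R 4.3.3; lmFit and eBayes with trend) was run on log2(TPM + 0.5) for the genes averaging over 1 TPM in either genotype, with Benjamini-Hochberg adjustment over all 12066 genes. Fold changes on this scale understate changes of low genes. Without the deposited counts this replaced the count test of the study, whose genotype-only design was kept. The fit was tested on simulated data before use, with changes larger than that of any member. That test does not tell how well smaller changes are found. Ratios were compared by exact permutation over libraries. Scripts ran in Python 3.11.15 with numpy 2.4.6, pandas 2.3.3 and matplotlib 3.10.9. Coordinates are from GENCODE for mm9, and promoters from RefSeq on GRCm38.p6.

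The members and lists were chosen with earlier results of these data known. Named were all members, Pax5, and in each list every gene past adjusted p below 0.05, or the 6 with the largest absolute change where more passed. The alternatives tried were a pseudocount of 0.1 or 1, a filter at 5 TPM or none, robust eBayes or eBayes with no trend, median-ratio rescaling, quantile normalization, removal of immunoglobulin and T cell receptor entries (518 in mm9), each library left out in turn, and the stricter rule of the study. The ChIP-seq, Pax5-Jak2 and leukaemia samples were not analysed here. Some genes of the lists are not reported here.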

Additional observations from a re-analysis of the deposited data

How the results depend on the processing

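Ezh2 kept its direction and its call in all 14 alternatives of the fit. Members called higher numbered 0, and 1 after median-ratio rescaling and after quantile normalization, with 0 to 1 over the fits that left out a library. Members called lower numbered 1, 0 by the stricter rule of the study, and 1 to 3 with a library left out. Other Polycomb genes called higher numbered 3, 1 with no filter and 0 by the rule of the study, and 1 to 3 with a library left out, and those called lower numbered 7, 0 by the rule of the study, and 4 to 11 with a library left out. Over all genes, 1885 were called higher, 1164 with no filter and 342 by the rule of the study, with 704 to 1977 when a library was left out, and 2596 lower, 1257 with no filter and 403 by the rule of the study, with 825 to 3233 when a library was left out. After median-ratio rescaling, 2393 genes were called higher and 2295 lower, and after quantile normalization 2455 and 2421. The shares of all genes called in each direction thus depended on the scaling. With 1 Pax5(-/-) library left, the lone library is assumed to vary like the other group. The cause of the other shifts was not tested. Of 140 member fold changes under the alternatives, 134 kept direction and side of the threshold. The exceptions were Bmi1, at 0.41 after either rescaling and at 0.26 to 0.38 with a library left out, Ezh1, at -0.42 to -0.18 with a library left out, Cbx7, at -0.52 to -0.11, and Cbx8, at -0.069 to 0.074. Bmi1 passed under both rescalings and without Pax5(+/+) library 3, and Ezh1 and Cbx7 without Pax5(+/+) library 1, where Cbx8 changed sign. Of 291 values of the other named genes, 255 kept both. All 30 values of the paralog ratios kept their direction, and all 40 Meox2-Cre levels moved by less than 1 SD. These outcomes were largely fixed in advance. A ratio without overlap cannot reverse when a library is left out, and leaving out 1 of 3 libraries cannot move a mean by 1 SD. No paired analysis was possible because no replicate number in the labels links the libraries of both genotypes. With 3 and 2 libraries, the intervals given limit the size of change that could be seen.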
